A study of Homo sapiens with 6 samples.

Results

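Gene expression on day 6 of cardiac organoid differentiation was set against that on day 4, with 1 RNA sequencing library for each day. A gene was included when its deposited FPKM (reads per kilobase of exon, times a scaling factor of each library) was at least 1 on either day, and 16727 of the 58735 genes of the table met this. The 4 families described here, contractile, matrix, endoderm and signalling genes, hold 845 distinct genes in 44 lists. Both libraries came from H9, an established human embryonic stem cell line, and the labels name no genetic change and no differentiation agent for either day. The 2 groups are therefore named by day alone. A change of agent between day 4 and day 6 could not be told apart from the day. The other 4 libraries of the course, from days 0, 2, 3 and 30, are used here for context only. Per the labels, 10 organoids were taken at each time point. The labels do not say whether the days came from 1 differentiation run, and their cell type entry reads embryonic stem cell on every day.

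The sarcomere is the contractile unit of heart muscle, in which myosin thick filaments pull on actin thin filaments that are anchored at Z-discs and switched by calcium through troponin and tropomyosin. Heart precursors form beside the foregut endoderm, which supplies signals to them, and the early heart tube holds a matrix rich in hyaluronan, called cardiac jelly, between its muscle and its inner lining. FGF, WNT, BMP, hedgehog and retinoic acid signals set where and when cardiac mesoderm forms, and each pathway also switches on its own feedback genes, whose transcripts are widely used as readouts.

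With 1 library per day there is no spread between samples, no p-value and no replicate check. A gene is said to have risen or fallen when its log2(FPKM + 1) differed by at least 1, where the added 1 understates the change of genes at low levels. A gene under 1 FPKM on 1 day was tested only through the other day, and could be called in 1 direction only. Folds are FPKM ratios, and the range after each is a 95% interval from reads recovered from the deposited values. It covers counting error only, and PCR copies of 1 molecule can count as separate reads. By this rule 922 genes rose (5.51% of those tested) and 1123 fell (6.71%), together 12.2%. Among the 12354 protein-coding genes tested, 531 rose (4.3%) and 516 fell (4.18%). Calls among short and noncoding classes rest on fewer reads: outside protein-coding, lincRNA and antisense genes, 299 rose and 463 fell, and the interval left out 1 in 134 and 221 of them. The 2 libraries held 14890104 reads on day 4 and 15418010 on day 6, of the range of 13500887 to 15526924 over the course. Mitochondrially encoded genes took 5.15% of reads on day 4 and 3.86% on day 6. Under TPM, which rescales each library to a fixed sum of length-scaled values, the median difference of the same 16727 genes was 0.18 against -0.0069 as deposited. There 56.2% of the calls were rises, over 24387 genes tested, against 45.1% as deposited. The gene nearest above the minimum reached 1.0008 FPKM and the nearest below it 0.9996. In bulk libraries, fewer cells of a type and less RNA per cell cannot be told apart.

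Cardiac markers were only in part present on day 6. Series of 6 values give the libraries of days 0, 2, 3, 4, 6 and, last, 30 in that order. TNNT2, cardiac troponin T, stood at 0.114, 0.0428, 0.182, 0.497, 9.83 and 14.8 FPKM, and the muscle actinin ACTN2 at 1.46, 0.696, 0.819, 0.709, 5.28 and 18.3 FPKM. MYH6, the atrial myosin heavy chain, had 0.0212, 0.0478, 0.14, 1.32, 3.43 and 69 FPKM, and the ventricular chain MYH7 had 0.0113, 0.0306, 0.0229, 0.0208, 0.133 and 28.9 FPKM. Titin (TTN), the giant spring protein, had 0.625 and 2.01 FPKM on days 4 and 6, a log2 difference of 0.89 that missed the threshold. So the troponin and the actinin had risen by day 6, while both heavy chains were at their highest on day 30. Markers of a still earlier state were lower on day 6. POU5F1, the pluripotency factor, fell from 34.5 to 3.68 FPKM, and 6 of 20 pluripotency genes fell while 0 rose. Of the 16 tested, 13 were at 1 FPKM or more on both days. Of these 4 fell and 0 rose, beside 3.52% and 2.93% of all genes at that level on both days. NANOG was at 0.434 and 0.0751 FPKM and SOX2 fell from 1.86 to 0.184 FPKM. Of 15 primitive streak genes, which mark the first mesoderm and endoderm, 11 fell and 0 rose. Of the 13 tested, 8 were at 1 FPKM or more on both days, and of these 7 fell and 0 rose. In both lists the other genes that fell passed only through day 4 and so could not have been called higher. MESP1, the factor of nascent cardiac mesoderm, ran 0.0581, 25.2, 65.2, 24.7, 0.879 and 0.513 FPKM over the course.

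Among protein-coding genes, the 15 greatest rises on the log2 scale crossed all 4 families. They included the collagen COL3A1 (6.78), the plasma proteins TTR (6.09), FGB (4.82) and HABP2 (4.32), the proteoglycan LUM (5.82), the apolipoprotein APOA1 (5.77) and the myosin light chain MYL7 (5.63). Next to them stood the plasminogen activator PLAT (4.61), the peptide APELA (4.36), the matrix protein NPNT (3.93), IGFBP3 (3.58) and RELN (3.49). GUCY1A1, a subunit of the nitric oxide receptor, and S100A14 were also among them, at 4.07 and 3.80. The 15 greatest falls held 2 secreted signals, FGF17 (-5.16) and NTN1 (-4.66), the retinoic acid hydroxylase CYP26A1 (-4.32) and the FGF feedback inhibitor SPRY4 (-3.50). They also held the mesoderm and endoderm factors MESP1 (-3.77), MIXL1 (-3.56), EOMES (-3.49) and PAX8 (-3.32). Also among them were STMN2 (-3.93), TNS4 (-3.94), ZAP70 (-3.55), GRAP2 (-3.30), SEZ6L (-3.28) and the tubulin TUBB2A (-3.28).

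Of the 190 contractile and cardiac genes listed, 40 rose and 11 fell between day 4 and day 6. A further 55 were under 1 FPKM on both days. The 135 tested genes rose in 29.6% and fell in 8.15% of cases, beside 5.51% and 6.71% of all tested genes, and their median difference was 0.41 beside -0.0069 for all. Over the 93 that reached 1 FPKM on both days, 20 rose and 5 fell, beside 2.93% and 3.52% of the 13734 such genes in the table. Thick and thin filament genes, assembly factors and cardiac transcription factors made up most of the rises. Troponin I of the adult heart, 2 potassium channels and the triadin of the calcium store were among the falls.

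In the thick filament list, 4 of 13 genes rose, 0 fell and 7 were under the minimum on both days. MYL7 (ENSG00000106631, chr7:44138864-44141332, minus strand), the atrial regulatory light chain, measured 0.236, 1.41, 2.44, 5.82, 336 and 64 FPKM from day 0 to day 30. Its day 6 value was the highest of the course and 57.7-fold (48.7 to 69) above day 4, from 134 and 8465 reads. MYL4 (ENSG00000198336, chr17:47200446-47223679, plus strand), the atrial essential light chain, had 0, 0.152, 2.98, 8.7, 61.9 and 20.2 FPKM over the course and rose 7.11-fold (6.19 to 8.21). The smooth and nonmuscle light chain MYL9 rose from 15.5 to 41.5 FPKM, and MYLK3, the cardiac myosin light chain kinase, from 3.24 to 9.08 FPKM. MYH6 was 2.61-fold (2.14 to 3.2) higher but its log2 difference of 0.94 missed the threshold. The ventricular light chain MYL2 was listed at 0 on both days and at 4.1 FPKM on day 30, and the myosin-binding protein MYBPC3 had 0.0148 and 0.0405 FPKM on days 4 and 6 and 17.7 on day 30. The day 6 library thus held the atrial light chains at higher levels per length than MYH6 or MYH7, and the ventricular MYL2 at 0. MYL3, the ventricular essential light chain, had 0.791 and 1.53 FPKM on days 4 and 6. MYH6 and MYH7 are near copies of each other, so their values are uncertain where reads match both.

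Of 17 thin filament genes, 6 rose and 3 fell. Of the 13 tested, 11 were at 1 FPKM or more on both days. Of these 4 rose and 3 fell, beside 2.93% and 3.52% of all such genes. TNNT2 and ACTA2 passed only through day 6 and so could not have been called lower. TNNT2 (ENSG00000118194, chr1:201359008-201377762, minus strand) was 19.8-fold (15.2 to 26.3) higher on day 6. TNNI1 (ENSG00000159173, chr1:201403768-201429866, minus strand), the slow skeletal troponin I that the embryonic heart also uses, measured 0.174, 0.124, 0.417, 1.08, 15.5 and 6.87 FPKM from day 0 to day 30, a rise of 14.4-fold (12 to 17.3). ACTC1 (ENSG00000159251, chr15:34788095-34795726, minus strand), cardiac actin, had 3.6, 1.21, 0.757, 1.32, 13.8 and 35.3 FPKM and rose 10.4-fold (8.45 to 13). All 3 stood higher on days 6 and 30 than on any earlier day. The smooth muscle actin ACTA2 rose 14.1-fold (9.56 to 21.7), from 0.574 to 8.11 FPKM. Tropomyosin TPM1, which lies along the actin filament and blocks myosin at rest, was already at 18 FPKM on day 0 and rose from 15.8 to 92.2 FPKM, and NEBL, a nebulin-like thin filament protein, from 2.3 to 14.3 FPKM.

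Of the thin filament genes that fell, 2 encode other forms of troponin. TNNI3, the adult cardiac troponin I, measured 2.61, 3.14, 4.66, 4.7, 1.59 and 1.07 FPKM from day 0 to day 30 and was 2.95-fold (2.16 to 4.08) lower on day 6 than on day 4. TNNT1, the slow skeletal troponin T, fell from 50.4 to 23.1 FPKM, a call that ended under TPM scaling, and the filament-capping TMOD1 from 12.6 to 4.07 FPKM. All 3 of these falls thus ran against the rise of TNNT2 and TNNI1. Cardiac and slow skeletal troponin C, encoded by TNNC1, stood at 0.707, 2.29, 9.19, 23.5, 16.9 and 8.66 FPKM over the course and did not pass the threshold. Other tropomyosins did not pass on days 4 and 6, TPM2 at 46 and 44.4 FPKM and TPM4 at 46.4 and 45.5 FPKM. Exons of other genes cover 30.1% of the exon length of ACTA2, 24.4% of TNNI3, 21.4% of TPM1 and 45% of TMOD1. Whether counting used strand is not given, so their reads cannot be told apart from those of these partners.

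Z-disc and M-band proteins anchor the filaments, and 5 of 29 rose while 1 fell. Of the 18 tested, 9 were at 1 FPKM or more on both days, of which 1, ANKRD1, rose and 0 fell. The other called genes were under 1 FPKM on 1 of the days, which fixed the direction of their call. XIRP1 (ENSG00000168334, chr3:39183210-39192596, minus strand), an actin-binding protein of the cell ends and nascent myofibrils, measured 0, 0.0576, 0.0755, 0.0587, 7.44 and 3.23 FPKM from day 0 to day 30 and rose 127-fold (58 to 346). ACTN2 rose 7.45-fold (5.71 to 9.86). NEXN rose from 0.742 to 2.97 FPKM, the small heat shock protein HSPB7 from 0.372 to 1.91 FPKM and the stretch-responsive ANKRD1 from 15.6 to 34.8 FPKM. PDLIM3 fell from 1.33 to 0.114 FPKM, and desmin (DES), with 2.44 and 0.751 FPKM, missed the threshold at -0.97. The M-band proteins MYOM1 and MYOM2, the Z-disc protein CSRP3 and the chaperone CRYAB were under 1 FPKM on both days. On day 30 CSRP3 stood at 17 FPKM and CRYAB at 18.9.

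Among 12 assembly factors, 3 rose and 0 fell. Of the 7 tested, 3 were at 1 FPKM or more on both days, of which 0 rose and 0 fell. The 3 that rose passed only through day 6 and so could not have been called lower. The list median was 0.89, but -0.39 with a minimum of 5 FPKM. The methyltransferase SMYD1, which binds myosin during myofibril building, had 0, 0, 0.0455, 0.0963, 4.99 and 4.24 FPKM over the course and rose 51.8-fold (24.9 to 129.8). UNC45B, the muscle myosin chaperone, measured 0, 0, 0, 0.0111, 4.37 and 1.07 FPKM. It had a single read on day 4 and 429 on day 6, a ratio of 392-fold (70.0 to 15525). Its general counterpart UNC45A stood at 18.4 and 12.7 FPKM on days 4 and 6, and did not pass the threshold. TRIM55, a ubiquitin ligase of the M-band, rose from 0.411 to 2.85 FPKM, whereas TRIM63 was at 0.0984 and 0.0225 FPKM and reached 16.2 FPKM on day 30.

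Promoter sequences of the sarcomere genes are shown because these genes rose together, and 13 of the 18 that rose in the 4 lists of filaments, Z-disc and assembly have a start in the RefSeq table used here (GRCh38.p14). The 250 bases before each start were searched on both strands for a GATA motif (spelled AGATAA with the variant AGATAG, or TGATAA with the variant TGATAG), a TEAD motif (CATTCC), an NKX2-5 motif (TNAAGTG), the CArG box of serum response factor and the MEF2 box. A GATA match was found for 9 of the 13 genes (69.2%) and a TEAD match for 8 (61.5%), beside 26.2% and 14.3% of the 27305 genes with such a window, counting a gene when any of its windows matched. Per window the shares were 42.9% and 38.1%, beside 22.3% and 11.9% of all 35116 windows. The CArG box matched in 2 (15.4%, beside 1.44%), the MEF2 box in 2 (15.4%, beside 3.44%) and the NKX2-5 motif in 2 (15.4%, beside 10.6%). Over all 26 contractile genes that rose and have a window, GATA matched in 53.85% and TEAD in 42.31%. In these 26 the CArG box matched in 7.69%, the MEF2 box in 19.23% and the NKX2-5 motif in 7.69%. Listed sarcomere genes that did not rise were not compared as a set. A match is a description of letters and not a bound site. The stretches printed run 5′ to 3′ on the minus strand, with CArG, MEF2, GATA and TEAD matches in capitals, none of which overlap. They are the 250 bases before the start, shortened where GENCODE 29 annotates an untranslated exon of another transcript there. MYL7 (chr7:44141333-44141582) carries a TEAD match, a CArG box and a GATA match in that order. TNNT2 (chr1:201377733-201377930) carries a GATA and a TEAD match, the second at the edge of such an exon. XIRP1 (chr3:39192596-39192845) carries a MEF2 box and a GATA match. The CArG box of ACTC1 (chr15:34795639-34795668, from 1 of 3 starts) lies inside such an exon and is shown with 10 bases on either side.
MYL7: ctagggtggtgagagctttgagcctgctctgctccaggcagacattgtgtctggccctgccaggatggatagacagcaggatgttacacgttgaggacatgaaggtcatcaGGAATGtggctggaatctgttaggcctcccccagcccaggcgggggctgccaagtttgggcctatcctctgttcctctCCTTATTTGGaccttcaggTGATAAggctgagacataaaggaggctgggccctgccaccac
TNNT2: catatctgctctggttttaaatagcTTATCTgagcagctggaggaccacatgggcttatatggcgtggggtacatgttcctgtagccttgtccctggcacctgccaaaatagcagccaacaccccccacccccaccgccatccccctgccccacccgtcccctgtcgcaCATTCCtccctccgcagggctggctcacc
ACTC1: gcgaaggggaCCAAATAAGGcaaggtggca
XIRP1: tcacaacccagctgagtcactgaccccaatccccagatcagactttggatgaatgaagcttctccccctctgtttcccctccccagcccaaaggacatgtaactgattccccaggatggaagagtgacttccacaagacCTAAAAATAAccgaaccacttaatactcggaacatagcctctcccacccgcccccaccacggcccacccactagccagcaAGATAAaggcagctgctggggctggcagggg

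**Figure D1:**
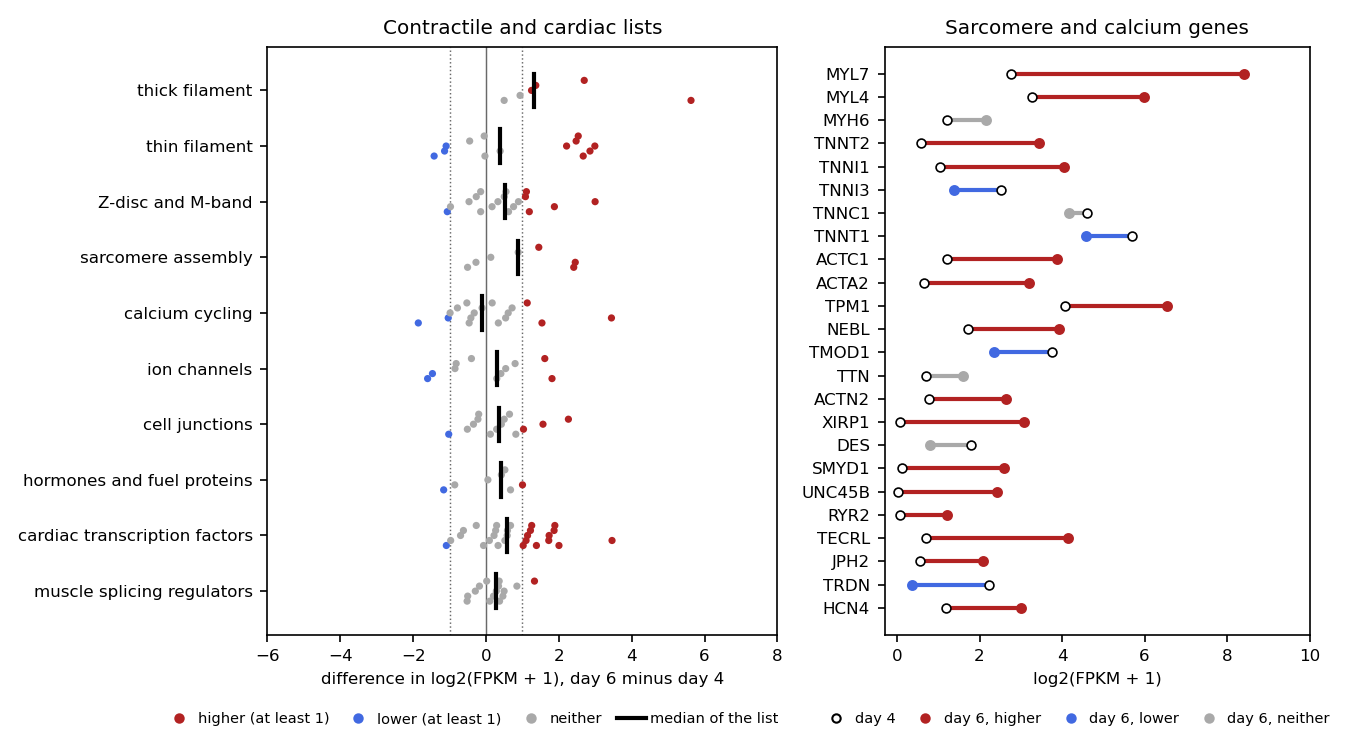
Left, difference in log2(FPKM + 1) between day 6 and day 4 for each tested gene of the contractile and cardiac lists (1 point per gene, black bar the list median, dotted lines the threshold of 1 either way); right, log2(FPKM + 1) of named genes on day 4 (open) and day 6 (filled). MYL7 moved furthest, from 5.82 to 336 FPKM, while TNNI3, TNNT1, TMOD1 and TRDN moved the other way.

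Calcium handling genes had calls both ways, and each called gene was under 1 FPKM on 1 of the days. Of 24 genes, 3 rose and 2 fell. Of the 17 tested, 9 were at 1 FPKM or more on both days, of which 0 rose and 0 fell. The rises passed only through day 6 and the falls only through day 4, which fixed their direction. The list median was -0.11, but 0.255 with a minimum of 5 FPKM. TECRL (ENSG00000205678, chr4:64275257-64409468, minus strand), a protein of the sarcoplasmic reticulum linked to inherited arrhythmia, measured 0, 0, 0, 0.63, 16.7 and 3.2 FPKM from day 0 to day 30. It was listed at 0 until day 3 and rose 26.6-fold (20.5 to 35) between days 4 and 6. The junctional protein JPH2 rose from 0.468 to 3.26 FPKM and the calcium release channel RYR2 from 0.0605 to 1.32 FPKM. Triadin (TRDN), which sits beside that channel, fell from 3.66 to 0.285 FPKM, or 12.8-fold (8.98 to 18.9), and calsequestrin CASQ1 from 1.11 to 0.0266 FPKM. TRDN had already been at 4.22 FPKM on day 0. The calcium pump ATP2A2 stood at 20.5 and 26.3 FPKM, and its regulators PLN and SLN were under 1 FPKM on both days. PLN reached 60.1 FPKM on day 30.

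Ion channels moved in both directions too, with 2 of 18 higher and 2 lower. Of the 11 tested, 4 were at 1 FPKM or more on both days, of which 1 rose and 0 fell. The pacemaker channel HCN4 had 17.9, 5.05, 1.53, 1.27, 6.97 and 1.46 FPKM over the course, and its rise of 5.49-fold (4.6 to 6.59) left it below day 0. KCNJ3, a subunit of the acetylcholine-gated potassium channel of atrial cells, rose from 0.587 to 3.86 FPKM, while KCNJ5, its partner subunit, fell from 4.26 to 0.900 FPKM. KCNA5, the ultrarapid potassium channel of the atrium, fell from 4.54 to 0.826 FPKM. At cell junctions 3 of 15 genes rose, namely POPDC2 (from 0.155 to 4.54 FPKM), the desmosomal PKP2 (from 13.7 to 42.6 FPKM) and plakoglobin JUP (from 29.8 to 61.9 FPKM). The connexin GJA5 fell from 3.42 to 1.18 FPKM, with 20.3% of its exon length shared with another gene, and this call was lost when libraries were scaled by total reads. Connexin 43 (GJA1) stood at 481 and 412 FPKM.

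Of the 14 cardiac hormones and fuel proteins, 1 rose and 1 fell. ATP1B1, the sodium pump subunit, rose from 14.1 to 29.3 FPKM, and COX7A1, the muscle form of a respiratory chain subunit, fell from 2.26 to 0.46 FPKM. The atrial natriuretic peptide NPPA was at 0.282 and 0.413 FPKM on days 4 and 6 and at 11.9 on day 30. NPPB, the brain type peptide, had 1.09 and 2.00 FPKM.

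Cardiac transcription factors rose more often than they fell: 12 of 32 rose, 1 fell and 5 were under the minimum on both days. MYOCD, the coactivator of serum response factor, had 0.0465, 0.077, 0.11, 0.0428, 3.18 and 0.821 FPKM and rose 74.4-fold (33.9 to 204). The T-box factors TBX5, TBX20 and TBX2 rose from 0.247 to 3.12 FPKM, from 4.39 to 19 FPKM and from 4.57 to 11.3 FPKM. So did HAND2 (from 10.5 to 41 FPKM), GATA5 (from 8.95 to 32.1 FPKM), NKX2-6 (from 5.45 to 15.8 FPKM) and GATA4 (from 29.3 to 60.5 FPKM). MEF2C, ZFPM2 and NR2F2 were under 0.5 FPKM on day 4 and at 1.45, 1.58 and 2.13 on day 6. The factor that fell was HEY2, a NOTCH target of ventricular muscle, from 11 to 4.66 FPKM.

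Other well-known cardiac factors did not pass. NKX2-5 measured 0.23, 0.623, 0.533, 9.31, 8.84 and 8.12 FPKM from day 0 to day 30, highest on day 4. ISL1, the second heart field factor, had 0.0478, 0.539, 3.41, 26.5, 16 and 1.24 FPKM, and HAND1 had 0.436, 7.25, 121, 193, 277 and 37.7 FPKM. GATA6 stood at 42.8 and 52.7 FPKM on days 4 and 6. Exons of a neighbour cover 24.1% of those of HAND2. Among 17 splicing regulators only MBNL2 rose, from 1.55 to 5.41 FPKM, and none fell; RBM20, which controls titin splicing, had 2.31 and 4.96 FPKM and RBM24 5.86 and 8.47 FPKM.

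Of 18 skeletal muscle genes 16 were under the minimum on both days, and of the 2 tested 0 rose and 1, ACTN3, fell, from 11 to 3.11 FPKM. MYOD1 was at 0 on both days and MYOG had 0.414 and 0.114 FPKM. The summed FPKM of this list was 15.4 on day 4 and 4.6 on day 6. In the smooth muscle and pericyte list, 4 of 15 rose (ACTA2, MYL9, the pericyte gene RGS5 and the actin-binding CALD1), and the sum was 133 and 250.02 FPKM. RGS5 alone rose from 18.8 to 94.2 FPKM. The smooth muscle myosin MYH11 was at 0.106 and 0.115 FPKM, and TAGLN and CNN1 at 2.63 and 4.36 FPKM and at 5.48 and 3.59 FPKM. The part of smooth muscle cells in the rise of ACTA2 and MYL9 was not tested.

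Matrix genes rose in 33 and fell in 16 of 197 listed cases, with 47 under 1 FPKM on both days. Of those tested, 22% rose and 10.7% fell, beside 5.51% and 6.71% of all genes, with a median of 0.29 beside -0.0069. Among the 123 at 1 FPKM or more on both days, 23 rose and 12 fell, beside 2.93% and 3.52% of all such genes. Rises included 6 fibrillar collagens and 2 laminin chains, and falls included 2 hyaluronan synthases, 2 integrins and 2 small proteoglycans.

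Fibrillar collagens form the load-bearing fibres of connective tissue. 6 of 11 rose and 0 fell. COL3A1 (ENSG00000168542, chr2:188974320-189012746, plus strand) measured 0, 0, 0.0307, 0.595, 174 and 4173 FPKM from day 0 to day 30. It went from 64 reads on day 4 to 20491 on day 6, a rise of 293-fold (229 to 380.2), and was higher again on day 30. COL1A1 (ENSG00000108821, chr17:50183289-50201632, minus strand) had 8.4, 5.75, 18.5, 73.8, 269.9 and 668 FPKM and rose 3.66-fold (3.58 to 3.73), and its partner chain COL1A2 rose from 17.2 to 108 FPKM. COL5A2, COL2A1 and COL11A2 rose as well, from 20.1 to 48.7 FPKM, from 25.3 to 51.8 FPKM and from 2.05 to 5.19 FPKM. COL5A1, the partner chain of COL5A2, stood at 77.8 and 88.9 FPKM. The 2 chains of type V collagen therefore differed in their change, and COL5A1 had been at 124 FPKM on day 3.

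Other collagens went both ways, with 3 of 19 higher and 3 lower. COL6A3 rose from 0.451 to 7.96 FPKM while 2 other chains of type VI collagen, COL6A1 and COL6A2, were at 146 and 223 FPKM and at 131 and 180.5 FPKM, and COL6A6 fell from 5.89 to 1.53 FPKM. COL22A1, a collagen of muscle attachment sites, rose from 1.04 to 5.98 FPKM. The transmembrane collagen COL13A1 fell 5.64-fold (5.15 to 6.18), from 31.3 to 5.55 FPKM.

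The basement membrane list had 6 of 26 genes higher and 0 lower. Nephronectin (NPNT, ENSG00000168743, chr4:105894775-106004027, plus strand), an integrin ligand that organises matrix at the early heart's muscle wall, measured 0.675, 0.0914, 0.0342, 0.455, 21.1 and 24.3 FPKM from day 0 to day 30 and rose 46.5-fold (34.5 to 64.1). The calcium-binding SMOC2 and SMOC1 rose from 0.141 to 8.52 FPKM and from 0.608 to 4.5 FPKM. Laminin chains LAMB1 and LAMA1 rose from 28.7 to 103 FPKM and from 31.5 to 81.1 FPKM. Nidogen NID2, which links laminin to collagen IV, rose from 25 to 99.4 FPKM; exons of other genes cover 30.0% of its own. LAMC1 and the collagen IV chains COL4A1 and COL4A2 were all higher but under the threshold, at 0.89, 0.90 and 0.90 on the log2 scale.

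Among 12 leucine-rich proteoglycans, which bind collagen fibres, 1 rose and 2 fell. Lumican (LUM, ENSG00000139329, chr12:91102629-91111831, minus strand) measured 0, 0, 0.0232, 0.0841, 60.1 and 373 FPKM from day 0 to day 30, with 4 reads on day 4 and 3126 on day 6, a ratio of 714-fold (279 to 2624). Biglycan (BGN) fell from 56.2 to 12.3 FPKM and fibromodulin (FMOD) from 72.5 to 22.2 FPKM, and both were above their day 4 level on day 30, at 251 and 381. Decorin (DCN) was at 0.00493 and 0.063 FPKM on days 4 and 6 and at 39.7 on day 30. Lumican thus rose on day 6 without the other 3.

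Of 36 glycoproteins and elastic fibre genes, 4 rose and 2 fell. Tenascin C (TNC), an adhesion-modulating protein of developing tissue, had 0.607, 3.39, 10.6, 10.3, 70.3 and 39.4 FPKM over the course and rose 6.85-fold (6.5 to 7.23). FREM1 rose from 2.22 to 29.9 FPKM, vitronectin (VTN), which is also a plasma protein, from 0.313 to 8.2 FPKM and TGFBI from 2.85 to 21.7 FPKM. The fibrillin FBN2 fell from 88.1 to 41.8 FPKM, a call lost under TPM or total-read scaling, and osteopontin (SPP1) from 5.21 to 0.648 FPKM. Fibronectin (FN1) stood at 421 and 396 FPKM, and periostin (POSTN) at 0.0695 and 0.254 FPKM with 132 on day 30.

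The cardiac jelly list had 1 of 19 genes higher and 3 lower. HAS2 (ENSG00000170961, chr8:121612116-121641390, minus strand), the main hyaluronan synthase of the embryonic heart, measured 2.25, 109, 208, 189, 75 and 19.3 FPKM from day 0 to day 30. It was lower on day 6 by 2.52-fold (2.44 to 2.6), though still far above day 0. HAS3 fell from 4.18 to 0.755 FPKM and the hyaluronan receptor CD44 from 3.29 to 0.243 FPKM. CEMIP2, a cell surface hyaluronidase, rose from 4.69 to 12.4 FPKM. Versican (VCAN) and the link protein HAPLN1, which hold hyaluronan in the jelly, stood at 84.5 and 96.1 FPKM and at 75.9 and 76.9 FPKM.

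Among 35 proteases and inhibitors, 8 rose and 3 fell, and among 21 genes that process collagen, 4 rose and 1 fell. At 1 FPKM or more on both days, 7 rose and 3 fell of 23 proteases and inhibitors. Of 18 such processing genes 3 rose and 0 fell, beside 2.93% and 3.52% of all such genes. Of the 20 processing genes tested, 9 had a positive and 11 a negative difference. Their median was -0.06, but 0.14 under TPM. PLAT, the tissue plasminogen activator, measured 0.385, 0.244, 0.0316, 0.172, 27.6 and 55.8 FPKM and rose 161-fold (101 to 271), whereas the other activator, PLAU, fell from 7.87 to 2.27 FPKM, with 31.1% of its exon length shared with another gene. MMP11 rose from 1.26 to 17.7 FPKM and ADAM19 from 8.62 to 28.3 FPKM. ADAMTS15 fell from 18.6 to 2.51 FPKM. PCOLCE, which speeds the trimming of procollagen, rose from 13.7 to 53.6 FPKM, and ADAMTS2, the enzyme that trims its amino end, from 3.43 to 8.38 FPKM. The chaperone of procollagen SERPINH1 stood at 135 and 133 FPKM. TLL1, a protease that also trims procollagen, fell from 3.05 to 0.108 FPKM.

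No integrin of 18 rose, and 2 fell. ITGA6, the laminin receptor chain, had 54.8, 13.2, 20.8, 29.7, 4.63 and 7.61 FPKM over the course and fell 6.42-fold (5.85 to 7.06), and ITGA5, the fibronectin receptor chain, fell from 84.6 to 24.8 FPKM. Their common partner ITGB1 was at 78.2 and 61.8 FPKM. ITGA8, a chain of the nephronectin receptor, was at 6.85 and 14.6 FPKM, a difference of 0.99 that missed the threshold.

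**Figure D2:**
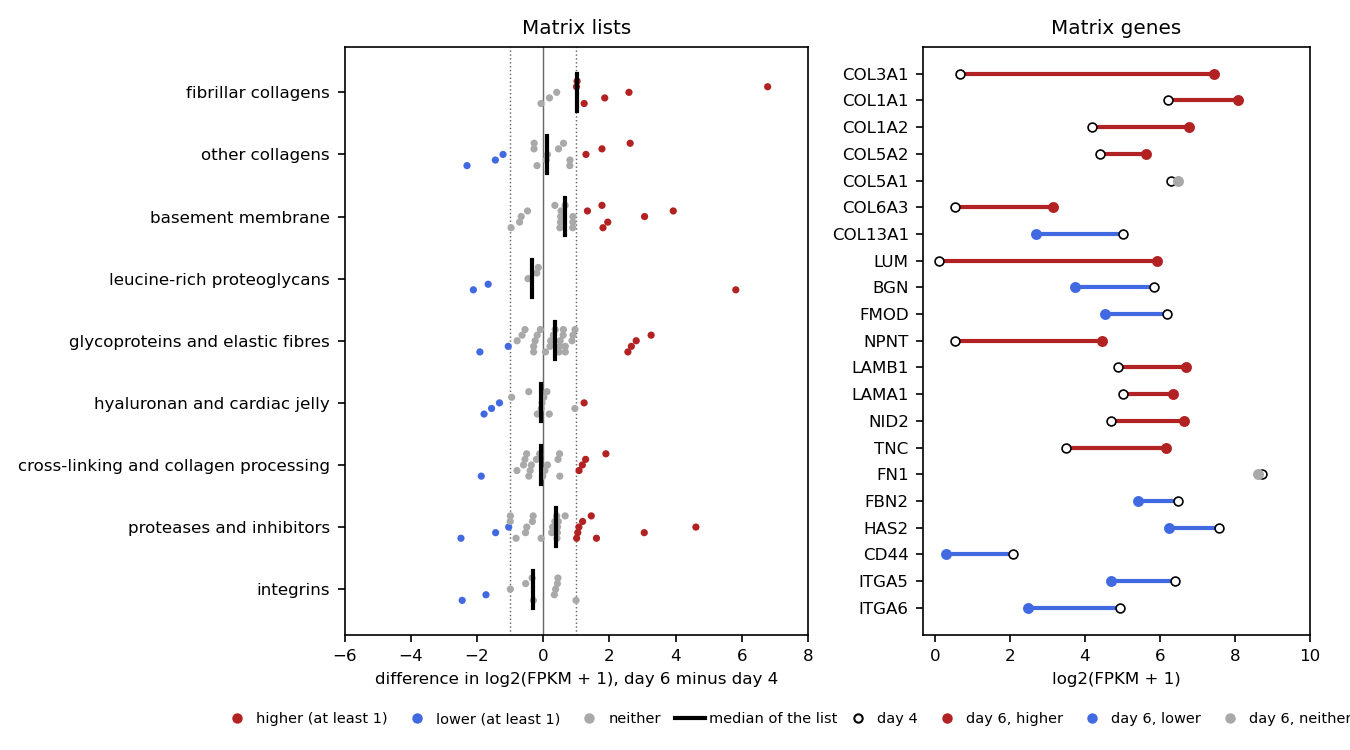
Left, difference in log2(FPKM + 1) between day 6 and day 4 for each tested gene of the matrix lists (1 point per gene, black bar the list median); right, log2(FPKM + 1) of named genes on day 4 (open) and day 6 (filled). COL3A1 and LUM went from under 1 FPKM to 174 and 60.1, while ITGA5, ITGA6, CD44 and BGN were lower on day 6.

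Markers of matrix-making cell types were as follows on days 4 and 6. In the fibroblast list, 4 of 15 genes rose (LUM and COL1A1, which are also matrix genes here, DDR2 and PDGFRA), and its summed FPKM was 113 and 418. DDR2, a collagen receptor, rose from 0.324 to 4.32 FPKM. THY1 measured 5.25 and 5.27 FPKM, FAP was at 0 on both days, and DCN and POSTN were under 1 FPKM. In the epicardial list, 4 of 15 rose and none fell, with a sum of 639 and 614 FPKM, of which KRT19 gave 609 and 532. The epicardial factors WT1, TBX18 and TCF21 stood at 0.0462 and 0.900 FPKM, at 0.00747 and 0.628 FPKM and at 1.61 and 2.99 FPKM. BNC1 and BNC2 rose from 1.03 to 7.43 FPKM and from 0.339 to 4.22 FPKM. The part of these cell types in the collagen rise was not tested.

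Of 131 endoderm genes listed, 33 rose, 9 fell and 45 were under the minimum on both days. Tested members rose in 38.4% and fell in 10.5% of cases, beside 5.51% and 6.71% of all genes, with a median of 0.57 beside -0.0069. Of the 63 at 1 FPKM or more on both days, 17 rose and 6 fell, beside 2.93% and 3.52% of all such genes. Rises were mostly plasma proteins, apolipoproteins and genes of absorptive epithelium, and falls mostly early endoderm factors.

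The first factors of mesendoderm and definitive endoderm were lower on day 6. EOMES (ENSG00000163508, chr3:27715949-27722711, minus strand) measured 0.0377, 167, 101, 52.6, 3.78 and 0 FPKM from day 0 to day 30 and fell 13.9-fold (12.2 to 15.9). MIXL1 had 0.509, 472, 91.1, 33.1, 1.88 and 0.239 FPKM and fell 17.6-fold (13.7 to 22.9). SOX17 (ENSG00000164736, chr8:54457935-54460888, plus strand), the definitive endoderm factor that endothelial cells also use, had 0, 79.4, 191, 196, 49.8 and 2.38 FPKM and fell 3.95-fold (3.75 to 4.15), and FOXA2 fell from 85.4 to 34.1 FPKM. EOMES and MIXL1 peaked on day 2, and SOX17 and FOXA2 on day 4.

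Factors of later gut and liver endoderm went both ways. HNF4A (ENSG00000101076, chr20:44355700-44434596, plus strand), the nuclear receptor that directs hepatocyte and yolk sac genes, measured 0, 0.289, 2.19, 2.45, 10.8 and 4.33 FPKM from day 0 to day 30 and rose 4.4-fold (3.87 to 5.02). FOXA1 and HHEX rose from 4.59 to 13.2 FPKM and from 6.52 to 14.6 FPKM, and HHEX was higher on day 2, at 16.8 FPKM. Under the threshold were CEBPA, at 0.962 and 2.57 FPKM, and 3 factors lower on day 6: FOXA3 at 24.8 and 14 FPKM, PROX1 at 4.51 and 1.81 FPKM and CEBPB at 21.4 and 10.3 FPKM. PDX1 of the pancreas and NKX2-1 of lung and thyroid were under 1 FPKM on both days, and CDX2 of the hindgut had 1.63 and 1.42 FPKM. Of all 30 factors listed, 5 rose and 6 fell.

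12 of 41 plasma protein genes rose and none fell, with 23 under the minimum on both days. Of the 18 tested, 6 were at 1 FPKM or more on both days, of which 2 rose, and the others passed only through day 6 and so could not have been called lower. Transthyretin (TTR, ENSG00000118271, chr18:31557010-31599021, plus strand), the thyroid hormone and retinol carrier, measured 0, 0.0259, 0, 0, 66.9 and 38 FPKM from day 0 to day 30. It had 0 reads on day 4 and 2771 on day 6, at least 844-fold higher against a floor of 3 reads. The fibrinogen chain FGB also had 0 reads on day 4 and rose to 27.3 FPKM, at least 389-fold higher on the same floor, and FGA rose from 0.24 to 6.49 FPKM. FGG, the third chain, stayed under the minimum at 0 and 0.611 FPKM. HABP2, a plasma protease, rose 142-fold (74.6 to 311), prothrombin F2 from 0.199 to 4.81 FPKM and the plasmin inhibitor SERPINF2 from 0.916 to 11.7 FPKM. Alpha-fetoprotein (AFP) rose from 0 to 1.1 FPKM and stood at 299 on day 30. Albumin (ALB) and SERPINA1 were under 1 FPKM on both days and at 14.5 and 114 on day 30. Fibrinogen B and transthyretin were thus well above AFP and albumin per length on day 6, and below AFP on day 30.

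Lipid carriers rose in 6 of 18 cases and fell in none. Of the 9 tested, 6 were at 1 FPKM or more on both days, of which 3 rose and 0 fell, beside 2.93% and 3.52% of all such genes. The others passed only through day 6 and so could not have been called lower. APOA1 (ENSG00000118137, chr11:116835751-116837950, minus strand), the main protein of high-density lipoprotein, measured 0.145, 0.393, 1.91, 3.87, 264 and 125 FPKM from day 0 to day 30 and rose 68.2-fold (55.2 to 85.3). APOA2 rose from 1.61 to 26.1 FPKM, APOM from 0.915 to 5.12 FPKM and APOB, the core of low-density lipoprotein, from 1.04 to 10.7 FPKM. MTTP, which loads lipid onto APOB, went from 0 reads to 822 and from 0 to 8.81 FPKM, at least 250.5-fold higher on that floor. APOE, by contrast, was at 846 and 457 FPKM and did not pass, and APOC1 was at 34 and 29.5 FPKM. APOA4, APOH and FABP1 were under the minimum on both days.

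Absorptive and yolk sac genes had 8 of 17 higher and 1 lower. The 3 parts of the cubilin uptake complex rose together, CUBN from 0.105 to 3.9 FPKM, its anchor AMN from 1.8 to 10.6 FPKM and the receptor LRP2 from 2.01 to 18.7 FPKM. Their adaptor DAB2 stood at 8.87 and 16 FPKM. DPP4 rose from 0.114 to 5.77 FPKM, the zinc transporter SLC39A5 from 1.24 to 15.5 FPKM and cathepsin CTSV from 20.2 to 84.9 FPKM. The aminopeptidase ANPEP fell from 11.4 to 2.68 FPKM. Exons of other genes cover 44% of villin (VIL1), the brush border protein, which rose from 3.68 to 9.13 FPKM.

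General epithelial genes showed no common direction, with 2 of 25 higher and 2 lower. EPCAM fell from 150.2 to 67.6 FPKM, which TPM scaling took below the threshold, and ELF3 from 3.28 to 0.611 FPKM, while the tight junction genes CGN and CLDN4 rose from 5.05 to 14.8 FPKM and from 1.55 to 5.57 FPKM. E-cadherin (CDH1) had 25.7 and 16.6 FPKM and keratin 8 (KRT8) 317 and 345 FPKM. The blood list, whose embryonic members mark the yolk sac's other product, had 2 of 21 genes higher, CD34 and GATA2, which endothelium also uses. The embryonic globins HBE1 and HBZ were listed at 0 on both days, and PTPRC had 0.0069 and 0 FPKM.

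**Figure D3:**
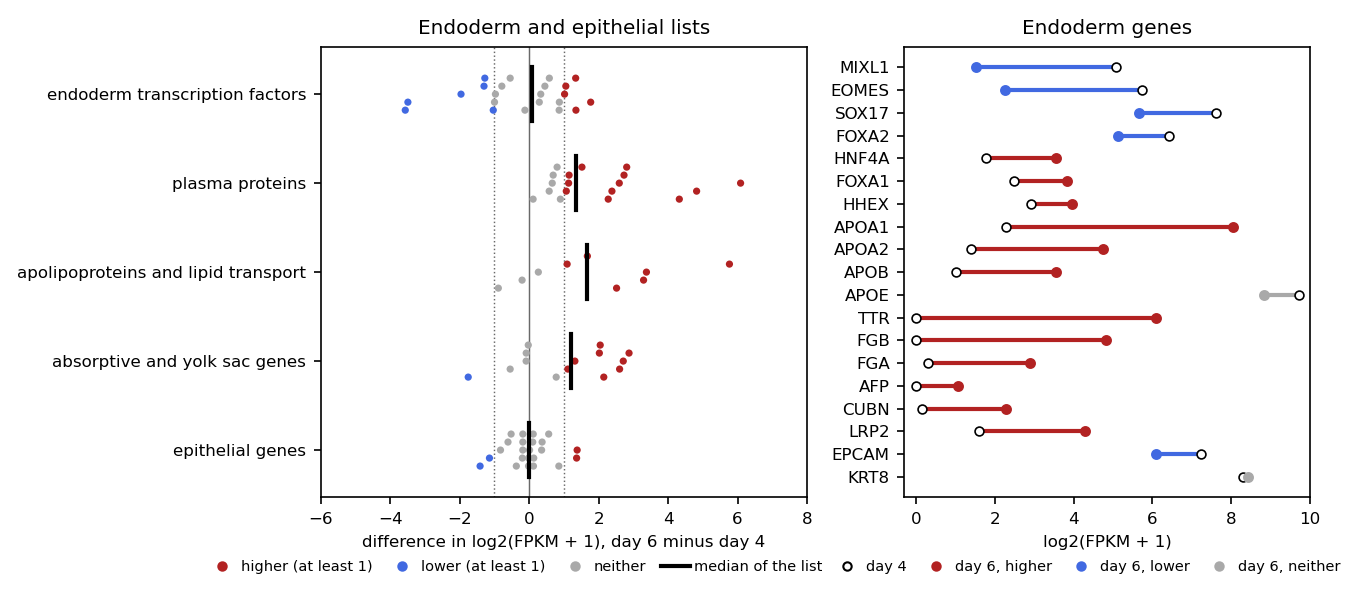
Left, difference in log2(FPKM + 1) between day 6 and day 4 for each tested gene of the endoderm and epithelial lists (1 point per gene, black bar the list median); right, log2(FPKM + 1) of named genes on day 4 (open) and day 6 (filled). MIXL1, EOMES, SOX17 and FOXA2 were lower on day 6, and APOA1, TTR and FGB reached 264, 66.9 and 27.3 FPKM.

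In the signalling family falls outnumbered rises: 55 of 338 genes fell, 42 rose and 81 were under the minimum on both days. Of those tested, 21.4% fell and 16.3% rose, both above the 6.71% and 5.51% of all genes. The median difference was -0.07, beside -0.0069 for all. FGF feedback, WNT inhibitors and retinoic acid genes account for 7, 6 and 6 of the falls, and hedgehog genes for 5 of the rises. Semaphorins, ephrins and slits gave 7 falls and 6 rises.

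Among 13 hedgehog genes, 5 rose and 0 fell. The ligand IHH (ENSG00000163501, chr2:219054420-219060467, minus strand) measured 0.068, 0.123, 1.69, 4.91, 46.1 and 8.16 FPKM from day 0 to day 30, highest on day 6, and rose 9.38-fold (7.96 to 11.1). The other ligands, SHH and DHH, were under 1 FPKM on both days, with SHH at 0.151 and 0.367 FPKM. PTCH1 (ENSG00000185920, chr9:95442980-95517057, minus strand), the receptor and a target of the pathway, had 3.72, 4.75, 10.0, 5.79, 25.1 and 2.02 FPKM and rose 4.34-fold (4.1 to 4.59). HHIP, a decoy receptor and also a target, rose from 0.293 to 2.2 FPKM, the co-receptor GAS1 from 6.18 to 31.4 FPKM and the effector GLI2 from 1.71 to 8.2 FPKM. GLI1, another target, was at 2.95 and 6.77 FPKM and just missed the threshold at 0.98. The signal transducer SMO was at 32.4 and 46.2 FPKM. All 3 of these targets were higher on day 6 than on day 4, by 4.34-fold, 7.51-fold and 2.29-fold.

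The ligands FGF17 and FGF8 and 7 of 14 FGF feedback genes fell. FGF17 (ENSG00000158815, chr8:22042398-22048809, plus strand) measured 0.272, 153, 84.9, 60.0, 0.704 and 0.96 FPKM from day 0 to day 30 and fell 85.3-fold (62.5 to 119.6), and FGF8 fell from 6.95 to 1.53 FPKM. FGF19 rose from 0.828 to 4.37 FPKM, and FGF10, a ligand of the second heart field, had 2.82 and 3.67 FPKM. Of the 14 feedback genes, 7 fell and 1 rose. SPRY4, an inhibitor of the receptor's downstream cascade, measured 48.4, 67.1, 83.4, 88.8, 6.92 and 8.15 FPKM over the course and fell 12.8-fold (11.9 to 13.8). The transcription factors ETV4 and ETV5 fell from 20.4 to 3.45 FPKM and from 17.8 to 4.14 FPKM, and the inhibitors IL17RD and SPRY2 from 26.9 to 5.51 FPKM and from 76 to 25.2 FPKM. DUSP6, the phosphatase that inactivates ERK, had 54.6 and 32.3 FPKM and did not pass, at -0.74, and DUSP4 had 19 and 19.4 FPKM. The exception was the membrane protein FLRT3, from 11.7 to 63.1 FPKM. The receptor FGFR2 rose from 11.9 to 55.1 FPKM, while FGFR1 stood at 64.3 and 66.4 FPKM.

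WNT genes moved in both directions. Of 23 ligands and R-spondins, 2 rose and 3 fell. Of the 9 tested, 5 were at 1 FPKM or more on both days. Of these 1 rose and 0 fell, beside 2.93% and 3.52% of all such genes. The 3 falls passed only through day 4 and the rise of RSPO3 only through day 6, which fixed their direction. The list median was -0.58, but 1.04 with a minimum of 5 FPKM. RSPO3 and RSPO4, secreted proteins that amplify WNT signals, rose from 0.896 to 9.5 FPKM and from 5.7 to 17.8 FPKM, and their receptor LGR4 rose from 23.9 to 78.4 FPKM. WNT8A fell from 2.82 to 0.277 FPKM. WNT11 and WNT5A, noncanonical ligands used in heart development, had 2.16 and 4.91 FPKM and 7.4 and 11.7 FPKM. Among receptors FZD8 rose from 10.5 to 35.8 FPKM and FZD7 fell from 287 to 125 FPKM, though not under TPM scaling. Secreted inhibitors fell in 6 and rose in 2 of 16 cases. DKK1 measured 0.0624, 211, 52.6, 27.7, 4.98 and 1.54 FPKM and fell 5.55-fold (4.75 to 6.52), CER1 fell from 10.0 to 0.762 FPKM and SFRP2 from 16.4 to 2.68 FPKM. SOST and FRZB rose from 0.44 to 7.6 FPKM and from 1.92 to 8.71 FPKM. Of 15 targets none rose and 3 fell, SP5 from 171 to 21.3 FPKM, NKD1 from 10.6 to 2.8 FPKM and the streak factor TBXT from 6.28 to 0.176 FPKM. AXIN2, a general target of the pathway, was at 8.2 and 4.06 FPKM, a difference of -0.86, and LEF1 at 22.1 and 23.2 FPKM.

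Of 18 BMP ligands, 4 rose and 1 fell. BMP5 rose from 8.13 to 31.9 FPKM, BMP6 from 2.53 to 9.43 FPKM, GDF7 from 0.0779 to 3.53 FPKM and BMP10, a ligand of trabecular heart muscle, from 1.4 to 3.98 FPKM. BMP4 and BMP2 stood at 86 and 96.8 FPKM and at 44 and 39.1 FPKM. GDF15, a stress-induced member, fell from 17.5 to 2.27 FPKM. The antagonist noggin (NOG) rose from 2.31 to 6.57 FPKM. Targets of the pathway had no common direction. ID1 was at 399 and 319.6 FPKM, ID2 at 75.1 and 118 FPKM and SMAD6 at 46.7 and 73.8 FPKM, none past the threshold, while SMAD9 rose from 5.17 to 14.8 FPKM and MSX1 fell from 210.1 to 69.6 FPKM.

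In the NODAL and activin list none of 15 rose, and the co-receptor TDGF1 fell from 99.9 to 24.4 FPKM. Its near relative CFC1 was at 43.3 and 51.3 FPKM, though reads of CFC1 and CFC1B may be shared. Of 14 TGF-beta genes 1 rose and 1 fell. TGFB2 (ENSG00000092969, chr1:218346235-218444619, plus strand), a ligand used in forming the heart cushions, measured 0.334, 0.0121, 0.244, 3.54, 30.9 and 3.66 FPKM from day 0 to day 30 and rose 8.73-fold (7.73 to 9.89), whereas TGFB1 fell from 93.9 to 33.1 FPKM. The 2 ligands thus moved in opposite directions, while the receptors TGFBR1 and TGFBR2 stood at 14.6 and 16.9 FPKM and at 2.91 and 2.15 FPKM. Exons of another gene cover 26.6% of those of TGFB2.

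Retinoic acid genes changed on both sides, with 4 of 22 higher and 6 lower. CYP26A1 (ENSG00000095596, chr10:93073475-93077890, plus strand), the enzyme that clears retinoic acid and is induced by it, measured 3.15, 43.7, 107, 68.9, 2.49 and 0 FPKM from day 0 to day 30 and fell 27.7-fold (23.2 to 33.3). HOXB1 (ENSG00000120094, chr17:48528526-48531001, minus strand), a homeobox gene of the hindbrain and heart field with retinoic acid response elements, had 0.0834, 1.38, 0.648, 1.89, 29.6 and 0.0327 FPKM and rose 15.6-fold (12.4 to 20.0). The receptor RARB, another direct target, rose from 1.47 to 4.4 FPKM, or 2.99-fold (2.34 to 3.85). RDH10, which makes the precursor retinal, rose from 1.82 to 6.63 FPKM. Of the enzymes that make the acid itself, ALDH1A3 fell from 5.4 to 0.241 FPKM, and ALDH1A1 and ALDH1A2 were under 1 FPKM on both days. The binding protein CRABP2 fell from 357 to 138 FPKM and the receptor RARG from 14.7 to 5.43 FPKM. CYP26A1 and the other 2 known targets, HOXB1 and RARB, thus moved in opposite directions. Exons of other genes cover 25.2% of those of CYP26A1 and 28.6% of those of ALDH1A3.

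The promoters of CYP26A1 and RARB are shown because both hold the same kind of retinoic acid repeat while one gene fell and the other rose. The 250 bases before each RefSeq start (GRCh38.p14) were searched on both strands for GTTCA or GGTCA, then 6 bases of any kind and GTTCA or GGTCA again. Such a repeat lies in a window of 49 of the 27305 genes (0.18%). Of those, 18 were tested here, 1 rose and 1 fell, a share near the 5.51% and 6.71% of all tested genes, and these are RARB and CYP26A1. The repeat of CYP26A1 (chr10:93073796-93073825, plus strand, from 1 of 2 starts) lies in an untranslated exon that GENCODE 29 gives another transcript and is shown as 30 bases. That of RARB (chr3:25428013-25428262, plus strand, 1 of 4 starts) is shown in the whole window. Both run 5′ to 3′ with the repeat in capitals, and in CYP26A1 it reads on the opposite strand.
CYP26A1: ttaaagaTGAACTTTGGGTGAACtaattgt
RARB: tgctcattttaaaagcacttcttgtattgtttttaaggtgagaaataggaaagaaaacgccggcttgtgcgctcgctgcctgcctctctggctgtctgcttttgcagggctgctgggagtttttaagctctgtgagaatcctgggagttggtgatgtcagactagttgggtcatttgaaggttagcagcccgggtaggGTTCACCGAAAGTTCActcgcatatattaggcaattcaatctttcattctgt

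Peptide and chemokine axes had 3 of 16 genes higher and 4 lower. APELA (ENSG00000248329, chr4:164877004-164898965, plus strand), an early ligand of the apelin receptor, measured 18.8, 1.25, 0.339, 1.54, 51.1 and 0.0786 FPKM from day 0 to day 30 and rose 33.3-fold (26.4 to 42.4). The receptor APLNR had 0.11, 358, 656, 316, 145 and 7.49 FPKM and fell 2.18-fold (2.13 to 2.24) between days 4 and 6, a call that TPM scaling removed, and the other ligand, APLN, was at 1.6 and 1.23 FPKM. Ligand and receptor thus moved in opposite directions. CXCR4, a chemokine receptor of migrating mesendoderm, fell from 68.4 to 9.47 FPKM. The endothelin receptor EDNRA rose from 1.3 to 8.05 FPKM, and the ligand EDN3 from 0.0232 to 1.59 FPKM. TRH fell from 26.1 to 2.72 FPKM.

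Guidance genes included the second greatest fall of all protein-coding genes. Netrin NTN1 (ENSG00000065320, chr17:9021542-9244000, plus strand) measured 0.421, 33, 33.7, 48.6, 0.961 and 2.22 FPKM from day 0 to day 30 and fell 50.6-fold (41.7 to 61.9). SEMA3G, EPHA2 and PLXND1 fell from 61.8 to 11.7 FPKM, from 61.5 to 15.5 FPKM and from 58 to 18.1 FPKM. SEMA3C, a semaphorin of the outflow tract, rose from 1.15 to 9.72 FPKM, SLIT3 from 3.3 to 11.2 FPKM and its receptor ROBO2 from 0.961 to 4.35 FPKM. Across the 32 listed, 6 rose and 7 fell.

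NOTCH genes had none of 21 higher and 3 lower, the ligands DLL3 (from 46.6 to 8.29 FPKM) and JAG1 (from 20.4 to 6.63 FPKM) and the target HEY2. The receptors NOTCH1, NOTCH2 and NOTCH3 did not pass, at 13.4 and 11.6 FPKM, 15 and 20.2 FPKM and 38.6 and 41.2 FPKM, and the target HES1 was at 25.9 and 24.5 FPKM. In the EGF family the neuregulins NRG1 and NRG3 fell from 4.07 to 0.363 FPKM and from 3.04 to 0.251 FPKM, while the receptor ERBB2 rose from 10.2 to 21.9 FPKM and ERBB4 was at 1.12 and 2.28 FPKM. Among IGF genes IGFBP3 rose 28-fold (21.1 to 38.1) and IGF2 rose from 2.48 to 17.1 FPKM, with 75% of its exon length shared with other genes, and IGFBP4 fell from 434 to 109 FPKM. In the VEGF and PDGF list the receptors TEK and PDGFRA rose from 1.11 to 7.85 FPKM and from 13.8 to 40.6 FPKM, and FLT1 fell from 16.4 to 6.00 FPKM. KDR, the main VEGF receptor, was at 51.3 and 73.9 FPKM.

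**Figure D4:**
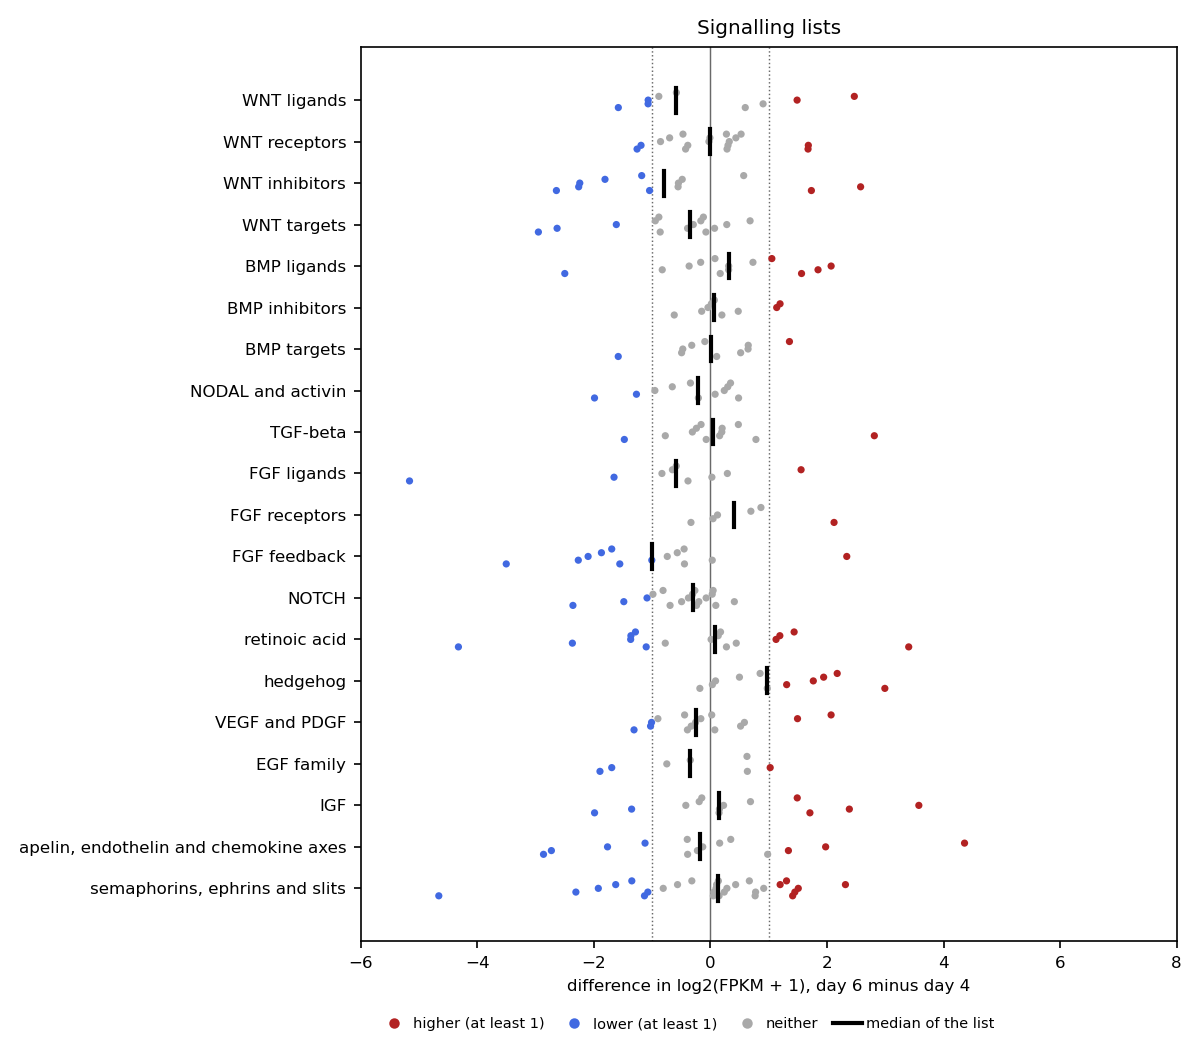
Difference in log2(FPKM + 1) between day 6 and day 4 for each tested gene of the 20 signalling lists (1 point per gene, black bar the list median, dotted lines the threshold of 1 either way). Of the tested hedgehog genes only BOC, at -0.18, lies below 0, and FGF17 (-5.16) and NTN1 (-4.66) lie furthest to the left.

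Endothelial and endocardial genes, whose receptors belong to the VEGF list, went both ways: 6 of 24 rose and 6 fell. Their summed FPKM was 184 on day 4 and 170.2 on day 6. Of the 17 tested, 13 were at 1 FPKM or more on both days. Of these 3 rose and 6 fell, beside 2.93% and 3.52% of all such genes. The others, CDH5 and TIE1 among them, passed only through day 6 and so could not have been called lower. The list median was 0.52, but -1.31 with a minimum of 5 FPKM. The junction cadherin CDH5 rose from 0.874 to 3.76 FPKM and TIE1 from 0.51 to 2.78 FPKM. NFATC1, the endocardial factor, fell from 46.7 to 5.25 FPKM and the early regulator ETV2 from 5.97 to 1.45 FPKM. PECAM1 stayed under 1 FPKM, at 0.326 and 0.835 FPKM. Lists of cell state differed between the 2 libraries. Of 25 cell cycle genes, MKI67 (from 12.4 to 27.2 FPKM) and CENPF rose and none fell, beside 5.51% and 6.71% of all genes. All 25 had a positive difference, with a median of 0.54 and a summed FPKM of 454 and 682. All 32 cytosolic ribosomal protein genes had a negative one, with a median of -0.45, and none passed the threshold. Of 14 immediate early genes 5 fell, including JUN (from 32 to 6.42 FPKM) and ATF3 (from 8.8 to 1.56 FPKM). Of 12 stress response genes 5 fell, including DDIT3 (from 10.7 to 2.83 FPKM) and TRIB3 (from 8.94 to 1.52 FPKM). Of 26 glycolysis and hypoxia genes 4 fell. The part of proliferation, handling or culture state in the family results was not tested.

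The 6 libraries of the course put these changes in order. MYL7, TPM1, APOA1, TTR, HNF4A, IHH, PTCH1 and APELA were at their highest of the 6 libraries on day 6. COL3A1, LUM, COL1A1, ACTC1 and TNNT2 were higher still on day 30. EOMES and FGF17 had peaked on day 2, CYP26A1 on day 3, and SOX17, FOXA2 and SPRY4 were at their highest on day 4.

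**Figure D5:**
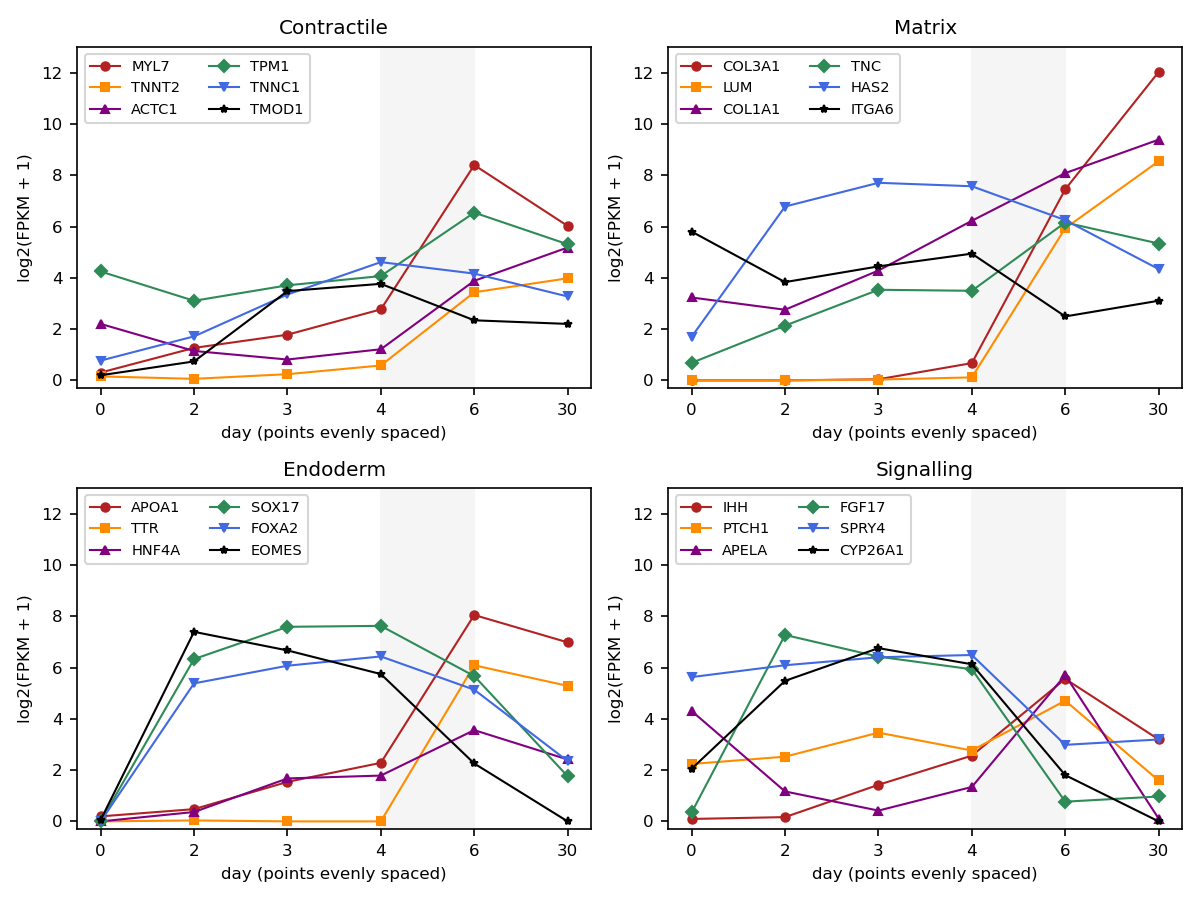
log2(FPKM + 1) of 6 genes of each family in the 6 libraries, 1 per day from day 0 to day 30, evenly spaced on the axis and days 4 to 6 shaded. MYL7, APOA1, TTR and IHH peak on day 6, COL3A1 and LUM go on to day 30, and FGF17, SPRY4 and CYP26A1 drop within the shaded step.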

How the data were processed

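The authors deposited 1 table of FPKM for 6 poly-A RNA libraries, 1 per day. Per the submitters' processing notes, CASAVA, HISAT2 and featureCounts 1.5.0-p3 were used. The build, strand setting and options are not given in any source used here, but 58724 of 58735 genes have the start, end and strand of GENCODE 29 (GRCh38). FPKM was computed on all exon bases of a gene, and multiplied by that length the deposited FPKM are whole steps, within 0.001 read, so reads were recovered from them. The deposited scaling did not follow the read totals alone. On day 6, with 15418010 reads, 1 read per kilobase was 0.0578 FPKM, and on day 30, with 14962790 reads, it was 0.0809. Small differences between days, above all against day 30, depend on this scaling.

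From there, differences in log2(FPKM + 1) were taken between day 6 and day 4 for genes of at least 1 FPKM on either day. A difference of at least 1 was called. Intervals are exact conditional binomial, and a gene at 0 reads was set to a floor of 3. The steps were tested on simulated data. Python 3.11.15, numpy 2.4.6, pandas 2.3.3, scipy 1.17.1 and matplotlib 3.10.9 were used. Sequences are from RefSeq (GRCh38.p14).

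The 62 gene lists and the members were chosen with earlier results of these data known. Genes named are the 15 greatest protein-coding rises and falls and, within lists, those that moved most, were highest on day 6, mark a cell type or went against their list. Some genes that this rule covers are not reported here; counts over lists include them. Depth and scaling alternatives are given in the closing section. A day with 1 library has no replicate error.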

Additional observations from a re-analysis of the deposited data

How the results depend on the processing

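As reported, 922 genes rose and 1123 fell. With a pseudocount of 0.1 the counts were 1595 and 1785, and 18 contractile genes fell. With a minimum of 5 FPKM they were 425 and 489, with 26 contractile genes higher and 3 lower. With a threshold of 2 they were 153 and 179, and the rises and falls by family were 15 and 0 for contractile, 12 and 4 for matrix, 18 and 2 for endoderm and 14 and 17 for signalling genes. Protein-coding genes alone gave 531 and 516, or 501 and 466 with at least 100 reads over both libraries, a choice made after seeing the data. TPM scaling gave 3459 and 2693, with 18 contractile falls, over 24387 genes, since 1 TPM is a lower minimum here than 1 FPKM. TPM without mitochondrially encoded genes gave 3615 and 3198, with 19 contractile falls and 66 signalling rises, over 25394 genes with a median difference of 0.12. Without a minimum the counts could not change, since a gene under 1 FPKM on both days cannot reach a difference of 1. Intervals that leave out 1, median-of-ratios scaling and total-read scaling kept every family count within 1.5 times the reported one. Of 224 called genes given with values in the text, APLNR, EPCAM, FBN2, FZD7 and TNNT1 lost the call under TPM, APLNR, FBN2 and TNNT1 under TPM without mitochondrial genes, and FBN2 and GJA5 under total-read scaling. A minimum of 5 FPKM left 178 of them to test, whose calls could not change because their differences stay the same. Of the 224, 98 kept the call at a threshold of 2. Depth limits genes of few reads: 1 read per kilobase was 0.0633 FPKM on day 4 and 0.0578 on day 6. No paired analysis was possible because each day has 1 library.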

Other observations

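The HOXB genes, which pattern tissue along the head-to-tail axis and are switched on one after another from HOXB1, were chosen for description after their values were seen. Of 10 genes of the HOXB cluster on chromosome 17, 7 rose between day 4 and day 6, beside 5.51% of all tested genes. HOXB1 rose 15.6-fold, as described with the retinoic acid genes. HOXB2 measured 0.0589, 0.824, 5.37, 17.7, 41.6 and 14.2 FPKM from day 0 to day 30 and rose 2.36-fold (2.15 to 2.58). HOXB4 measured 0, 0.231, 0.52, 2.39, 15.1 and 15.8 FPKM in the same order and rose 6.32-fold (5.3 to 7.59), and HOXB5 measured 0, 0.0304, 0.342, 1.18, 9.1 and 4.52 FPKM and rose 7.72-fold (5.51 to 11.1). HOXB3, HOXB6 and HOXB7 rose from 6.82 to 20.4 FPKM, from 1.29 to 7.44 FPKM and from 0.331 to 2.12 FPKM. Exons of other genes cover 32.9% of those of HOXB6, 17.1% of HOXB4 and 13.2% of HOXB3, and reads of such stretches cannot be told apart. HOXB8, at 1.7 and 2.65 FPKM, and HOXB9, at 2.06 and 1.17 FPKM, did not pass the threshold. HOXB1 alone among them was back near 0 on day 30, at 0.0327 FPKM. HOXB13, which lies apart from the rest of the cluster, stayed under 1 FPKM. All 11 HOXA, 9 HOXC and 9 HOXD genes were under 1 FPKM on both days.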
